A study of Mus musculus with 6 samples.

Results

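Basophils and mast cells are granulocytes that bind IgE and release stored mediators, and 10 genes of their IgE receptor, granules and mediators were followed here. They are Fcer1a, Ms4a2 and Fcer1g for the receptor chains, Prss34, Mcpt8, Cpa3 and Gzmb for the granule proteases, Hdc and Cyp11a1 for enzymes that make mediators, and Il1rl1 for a cytokine receptor. They were chosen by name, with earlier results of these data known, and all 10 have a row among the 17523 in the deposited count table. The RNA came from bone marrow cells of C57BL/6 mice, collected by FACS, and gave 3 NHD13 and 3 WT libraries. NHD13 mutant mice express a fusion of the nucleoporin NUP98 with the homeobox protein HOXD13 and model myelodysplastic syndrome, and wild-type mice are the controls. The series names the cells as hematopoietic stem cells. The sort markers, the age and sex of the mice, the promoter that drives the fusion and whether each library is 1 animal are missing from the labels used here. The p-values therefore measure the spread between these libraries only, which may be technical.

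The high-affinity IgE receptor is built from an alpha chain, which binds IgE, a beta chain, which strengthens the signal, and gamma chains, which carry the signalling motif. When antigen cross-links bound IgE, the cell empties granules that hold histamine and serine proteases and makes leukotrienes and cytokines. Basophils mature in the marrow and circulate, whereas mast cell precursors leave the marrow early and finish maturation in tissues. Transcription factors of the GATA family, chiefly GATA2, are known to direct both lineages. MITF, the mast cell factor, and C/EBP alpha are also known to take part.

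Libraries held 12541538 to 14388772 counts, so that 1 count was worth 0.0695 to 0.0797 CPM (counts scaled to a fixed library size). The row for the fusion had 185, 179 and 167 counts in NHD13 replicates 1, 2 and 3 and 0 counts in the 3 WT libraries. The label of the sorted cells was not borne out by Procr and Fgd5, markers of stem cells: Procr summed to 7 counts over the NHD13 libraries and 14 over the WT libraries, and Fgd5 to 4 and 4, while 8 neutrophil genes took 34960 to 37740 CPM in NHD13 and 45150 to 59930 CPM in WT. NHD13 replicate 1 was the NHD13 library closest to every WT library. Its Spearman's correlation of log2 CPM across genes was 0.986, 0.979 and 0.982 with WT replicates 1, 2 and 3. NHD13 replicates 2 and 3 gave 0.970 and 0.972 with WT replicate 1. They gave 0.967 and 0.968 with WT replicate 2, and 0.971 and 0.972 with WT replicate 3. Summed RNA of the Y-linked genes Ddx3y, Eif2s3y, Kdm5d and Uty was 177 to 280 CPM in NHD13 and 109 to 194 CPM in WT, so results with this sum as a covariate are given where they change a call. This sum differed in part with the group, so the covariate also takes up part of the difference between the groups. A call lost with it may reflect lost power and cannot be read as an effect of sex.

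Promoter sequence from RefSeq (GRCm38.p6, which is the mm10 build of the counting) is shown for the 5 of the 10 genes with the letters GATAA. GATA factors bind these letters, and the question is only whether they are there. Genes without a match, such as Mcpt8, are not printed. Each line gives the 250 bases before the annotated start, read 5′ to 3′ on the gene's own strand, with GATAA or its reverse complement TTATC in capitals. The windows are chr1:173227230-173227479, minus strand for Fcer1a, chr19:11623720-11623969, minus strand for Ms4a2, chr17:25298144-25298393, plus strand for Prss34, chr3:20242182-20242431, minus strand for Cpa3 and chr1:40429320-40429569, plus strand for the upstream of the annotated Il1rl1 starts.
Fcer1a: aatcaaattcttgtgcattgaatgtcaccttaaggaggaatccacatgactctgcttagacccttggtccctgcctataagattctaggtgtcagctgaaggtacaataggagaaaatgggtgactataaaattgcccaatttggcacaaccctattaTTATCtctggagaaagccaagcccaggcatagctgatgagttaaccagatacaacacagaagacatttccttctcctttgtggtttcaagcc
Ms4a2: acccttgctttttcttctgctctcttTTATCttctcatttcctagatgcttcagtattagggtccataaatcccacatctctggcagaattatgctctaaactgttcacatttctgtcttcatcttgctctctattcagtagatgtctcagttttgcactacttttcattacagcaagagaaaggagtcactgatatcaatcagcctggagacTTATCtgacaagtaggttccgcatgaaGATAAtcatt
Prss34: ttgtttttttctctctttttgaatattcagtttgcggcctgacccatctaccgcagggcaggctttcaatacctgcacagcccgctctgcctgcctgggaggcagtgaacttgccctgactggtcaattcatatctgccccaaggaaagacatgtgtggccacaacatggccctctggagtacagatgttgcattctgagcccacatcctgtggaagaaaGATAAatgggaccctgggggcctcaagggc
Cpa3: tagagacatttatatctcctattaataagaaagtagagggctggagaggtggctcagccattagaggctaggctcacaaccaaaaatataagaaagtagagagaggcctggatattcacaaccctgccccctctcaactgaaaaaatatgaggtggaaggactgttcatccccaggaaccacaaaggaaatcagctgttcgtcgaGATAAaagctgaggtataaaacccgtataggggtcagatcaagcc
Il1rl1 upstream start: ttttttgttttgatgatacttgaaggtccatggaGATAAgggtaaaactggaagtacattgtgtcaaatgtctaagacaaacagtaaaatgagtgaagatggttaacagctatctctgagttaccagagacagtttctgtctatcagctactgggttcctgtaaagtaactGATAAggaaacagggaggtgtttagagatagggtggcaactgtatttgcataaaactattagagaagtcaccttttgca

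The match lies 92 bases before the start of Fcer1a, 30 before Prss34 and 45 before Cpa3. Ms4a2 has 3 matches, 224, 37 and 10 bases before its start, and the upstream Il1rl1 window has 2, at 216 and 79 bases. The downstream Il1rl1 start has 1 match at 103 bases, and the windows of Fcer1g, Mcpt8, Gzmb, Hdc and both starts of Cyp11a1 have none. At least 1 match was thus present in 6 of 12 windows, for 5 of 10 genes, against 22.6% of all 32851 RefSeq windows of this length. At least 2 matches were present in 2 of 12 windows, against 4.28% of all windows. Genes with and without the letters were found on both sides of the comparison below: Mcpt8 fell and has none, and Il1rl1 did not fall and has them. The RUNX core TGTGGT, searched on both strands, was present in 5 of 12 windows (14.0% of all), and the C/EBP-like pattern TTNNGNAA in 4 of 12 (36.8% of all).

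Of the 10 genes, 8 fell in NHD13 and none rose at an adjusted p under 0.05 (edgeR quasi-likelihood test), where 15.3% of the 12013 genes tested were lower and 15.0% higher, 30.3% in all. In the same 8 genes every NHD13 library was below every WT library, against 22.6% of the tested genes. Fcer1a, Prss34, Mcpt8, Cpa3, Cyp11a1 and Ms4a2 fell by at least 4-fold in the fit, as did 1.66% of all tested genes. Hdc and Fcer1g fell less, and Gzmb and Il1rl1 did not pass the threshold. With the Y-linked sum as a covariate 5 of the 10 fell, and 175 of the 12013 genes tested were lower. The log2 changes of the 5 were then -6.54 for Fcer1a, -3.87 for Prss34, -3.19 for Mcpt8, -2.14 for Cpa3 and -1.33 for Ms4a2. The median log2 change was -2.14 over the 10 genes and 0.00115 over all genes tested. Fcer1a and Cyp11a1 passed the filter on low counts only through the WT libraries, so that for them a fall was the one difference the test could find. In bulk RNA, fewer cells of a type and less RNA per cell cannot be told apart.

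**Figure D1:**
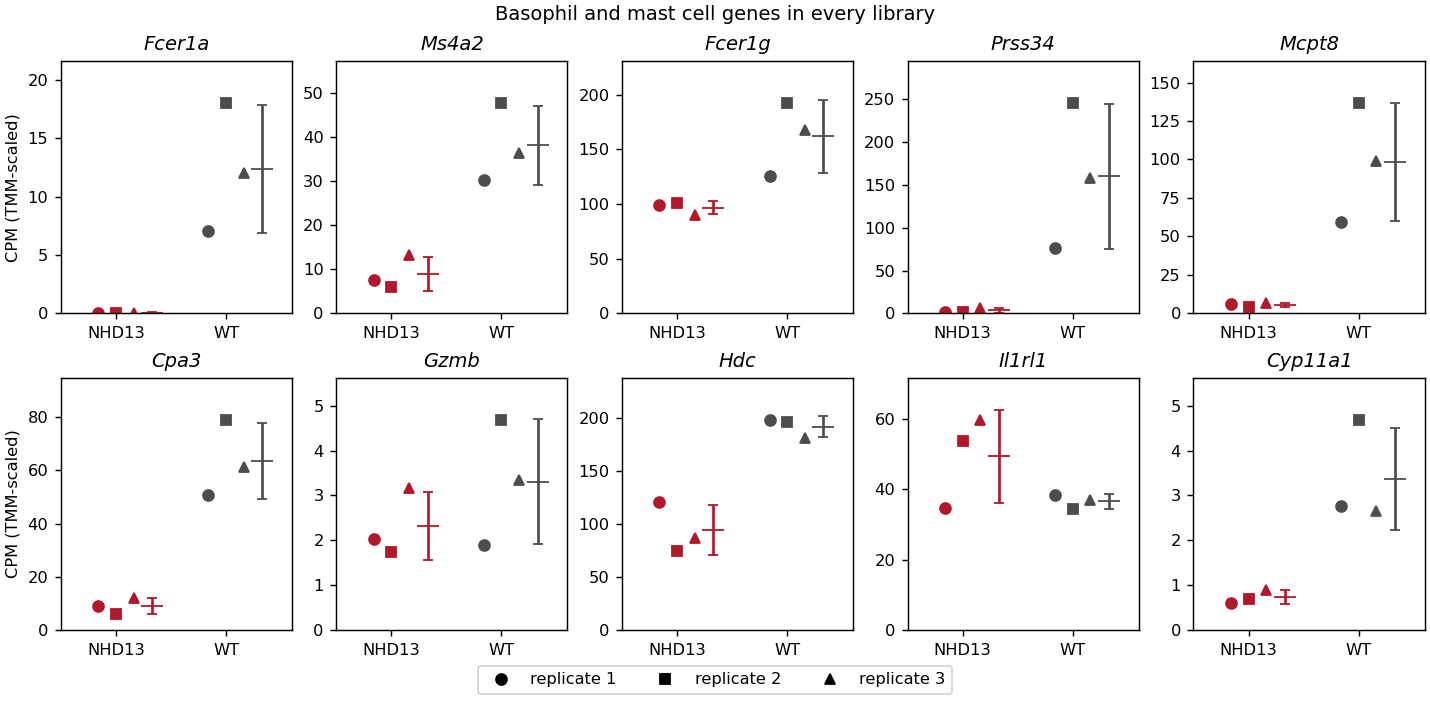
CPM scaled by TMM for each of the 10 genes, with NHD13 left and WT right in every panel. Symbols are libraries by replicate number, horizontal ticks are means and bars are ± 1 SD (n = 3). For 8 genes the NHD13 points lie below all WT points, and for Gzmb and Il1rl1 they overlap.

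The IgE receptor chains fell to very different extents. Fcer1a, the IgE-binding alpha chain (chromosome 1, 173221284 to 173227214), had 0, 1 and 1 counts in NHD13 replicates 1, 2 and 3, against 89, 242 and 172 counts in WT replicates 1, 2 and 3. The 2 counts left in NHD13 correspond to 0.381% of the WT level, with an exact (Clopper-Pearson) 95% counting interval of 0.046% to 1.38%. No other tested gene had a lower fitted log2 change (-7.78, SE 0.65, adjusted p = 0.000184), though at so few counts the fitted value depends on the prior count.

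Ms4a2, the signal-amplifying beta chain (chromosome 19, 11615523 to 11623719), was at 7.495, 5.91 and 13.3 CPM in NHD13 replicates 1 to 3, against 30.2, 47.7 and 36.4 CPM in WT replicates 1 to 3. The groups did not overlap, and NHD13 replicate 3 was the highest of its group. Its log2 change was -2.10 (SE 0.28, adjusted p = 0.00166), so that 23.3% of the WT level was left. Unlike Fcer1a, Ms4a2 therefore stayed well above the detection limit in every NHD13 library, with 85 to 192 counts.

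Fcer1g encodes the gamma chain (chromosome 1, 171229572 to 171234365), which other Fc receptors of myeloid cells also use. It was at 98.8, 101.3 and 90.1 CPM in NHD13 replicates 1 to 3, against 125.8, 192 and 168 CPM in WT replicates 1 to 3. The groups lay close but did not overlap, and WT replicate 1 was the lowest WT library. The log2 change was -0.74 (SE 0.14, adjusted p = 0.00625). This call was lost with the Y-linked sum as a covariate (log2 -0.54, adjusted p = 0.205).

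The basophil proteases showed the deepest falls after Fcer1a. Prss34, a serine protease known in mice as mast cell protease 11 and made mainly by basophils (chromosome 17, 25298394 to 25300165), was at 1.57, 2.02 and 6.84 CPM in NHD13 replicates 1 to 3, against 75.9, 245 and 158 CPM in WT replicates 1 to 3. The groups were far apart although both were spread widely, by 4.34-fold within NHD13 and 3.23-fold within WT. The log2 change was -5.51 (SE 0.59, adjusted p = 0.00084), the 7th lowest of all tested genes, and it was -6.48 without NHD13 replicate 3.

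Mcpt8, a granzyme-like protease that marks mouse basophils (chromosome 14, 56082166 to 56085273), was at 6.07, 4.03 and 6.56 CPM in NHD13 replicates 1 to 3, against 59.6, 136.6 and 99.1 CPM in WT replicates 1 to 3. Every WT library was thus several-fold above the highest NHD13 library. The log2 change was -4.15 (SE 0.32, adjusted p = 0.000141).

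Cpa3, the carboxypeptidase of mast cell and basophil granules (chromosome 3, 20215620 to 20242181), was at 8.99, 5.98 and 12.2 CPM in NHD13 replicates 1 to 3, against 50.55, 78.9 and 61.3 CPM in WT replicates 1 to 3. Its groups did not overlap. The log2 change was -2.81 (SE 0.24, adjusted p = 0.000228), so that 14.2% of the WT level was left.

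Gzmb, the cell-death protease of cytotoxic lymphocytes that mast cells and basophils can also store (chromosome 14, 56258838 to 56262260), was scarce in both groups. It had 27, 25 and 46 counts in NHD13 replicates 1 to 3, against 24, 63 and 48 counts in WT replicates 1 to 3. The groups overlapped, since WT replicate 1 was below NHD13 replicate 3. The log2 change of -0.52 (SE 0.36) did not pass the threshold (adjusted p = 0.297), and with the Y-linked sum as a covariate its sign turned (log2 0.51, adjusted p = 0.423). Gzmb lies 174 kb from Mcpt8 in the granzyme and chymase cluster of chromosome 14, so 2 neighbours of 1 protease cluster stood far apart in size of change.

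Hdc, histidine decarboxylase, makes histamine (chromosome 2, 126593667 to 126619299) and is also known in myeloid progenitors outside these lineages. It was at 121, 75.1 and 87.4 CPM in NHD13 replicates 1 to 3, against 198, 197 and 181 CPM in WT replicates 1 to 3. The WT libraries were tight (192 ± 9.69 CPM, SD, n = 3) and stood above all NHD13 libraries. The log2 change was -1.02 (SE 0.15, adjusted p = 0.00272). With the Y-linked sum as a covariate the change was -1.05 and did not pass (adjusted p = 0.0734).

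Cyp11a1, the mitochondrial enzyme that cleaves the cholesterol side chain at the first step of steroid hormone synthesis (chromosome 9, 58006411 to 58027023), was the scarcest of the 10 genes per exon length in WT. It had 8, 10 and 13 counts in NHD13 replicates 1 to 3, against 35, 63 and 38 counts in WT replicates 1 to 3. The groups did not overlap, and WT replicate 2 was highest. The log2 change was -2.18 (SE 0.33, adjusted p = 0.00295), and the call was lost with the Y-linked sum as a covariate (log2 -1.71, adjusted p = 0.106).

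Il1rl1 encodes ST2, the receptor for the alarmin IL-33 (chromosome 1, 40429570 to 40465415), and was the only 1 of the 10 genes with a higher mean in NHD13. It was at 34.55, 53.7 and 59.7 CPM in NHD13 replicates 1 to 3, against 38.4, 34.3 and 36.9 CPM in WT replicates 1 to 3. NHD13 replicates 2 and 3 were above every WT library, and NHD13 replicate 1 lay within the WT range. The log2 change of 0.43 (SE 0.18) did not pass the threshold (adjusted p = 0.0937). It passed without NHD13 replicate 1 (log2 0.64, adjusted p = 4.17e-05) and without replicate 1 of both groups (log2 0.67, adjusted p = 7.11e-06). ST2 has a membrane-bound and a soluble form, and gene counts do not separate them.

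**Figure D2:**
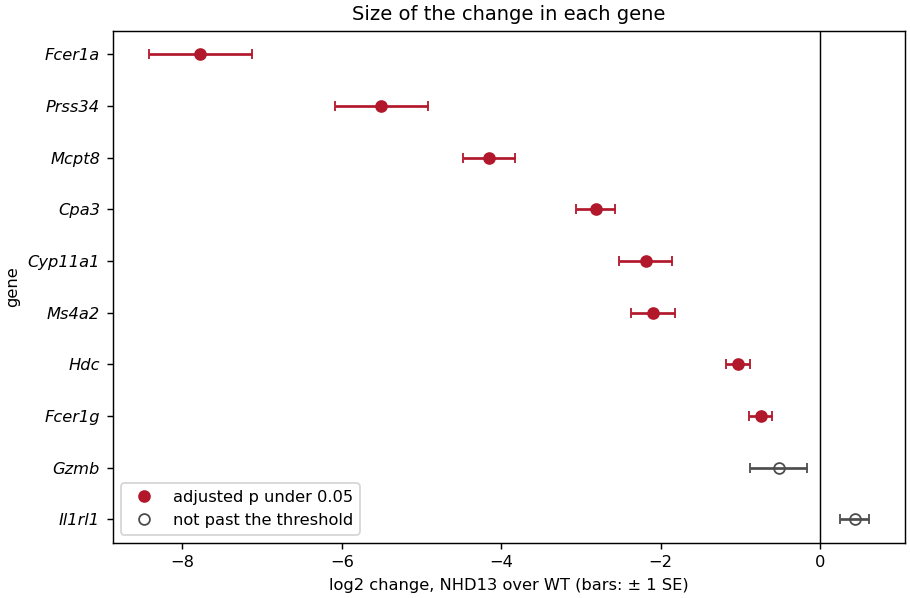
Log2 change of each gene, NHD13 over WT, from the edgeR fit, with bars of ± 1 SE. Filled points passed an adjusted p of 0.05. The changes run from -7.78 for Fcer1a to 0.43 for Il1rl1, and Gzmb and Il1rl1 are the open points.

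Levels of different genes were compared per kilobase of exon (union of GENCODE vM21 exons), in CPM per kb. In NHD13 the order of the mean levels was Fcer1g (110.7 ± 6.72, SD, n = 3), Hdc (14.8 ± 3.72), Il1rl1 (7.15 ± 1.90), Cpa3 (5.96 ± 2.04), Mcpt8 (5.57 ± 1.34), Ms4a2 (3.16 ± 1.38), Prss34 (2.85 ± 2.39), Gzmb (1.61 ± 0.53), Cyp11a1 (0.152 ± 0.032) and Fcer1a (0.0463 ± 0.040). In WT it was Fcer1g (185.4 ± 38.5, n = 3), Prss34 (131 ± 69.5), Mcpt8 (98.6 ± 38.5), Cpa3 (41.9 ± 9.44), Hdc (30.05 ± 1.52), Ms4a2 (13.5 ± 3.15), Fcer1a (12.4 ± 5.50), Il1rl1 (5.30 ± 0.30), Gzmb (2.30 ± 0.97) and Cyp11a1 (0.701 ± 0.238). In NHD13 each gene from Il1rl1 to Gzmb in this order overlapped its neighbour in library values. In WT the neighbours that overlapped were Fcer1g with Prss34, Prss34 with Mcpt8, and Ms4a2 with Fcer1a. Prss34 thus stood at place 7 in NHD13 and place 2 in WT, while Il1rl1 stood at place 3 in NHD13 and place 8 in WT. The library values of Fcer1a and Ms4a2 were far apart in NHD13 and overlapped in WT.

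**Figure D3:**
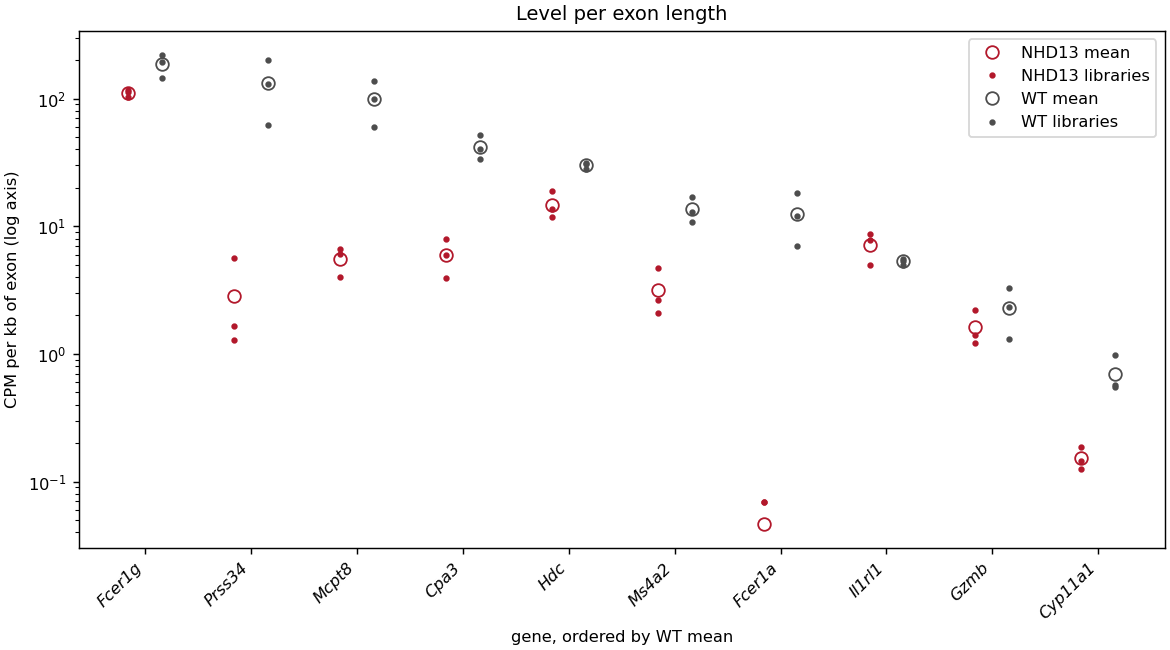
Level of each gene in CPM per kb of exon on a log axis, with NHD13 left of WT for each gene and genes ordered by the WT mean. Open circles are means and dots are libraries (n = 3 each). NHD13 replicate 1 had 0 counts of Fcer1a and has no dot. Prss34 stands at place 7 in NHD13 and place 2 in WT.

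Ratios of 2 genes within a library do not depend on scaling between libraries. The 9 ratios given here were chosen after the values were seen, and 3 against 3 libraries cannot give an exact two-sided permutation p below 0.1. For each of the 9, the NHD13 and WT libraries did not overlap (exact permutation p = 0.1, adjusted p = 0.1 over the 9). Fcer1a counts per 100 Ms4a2 counts were 0, 1.18 and 0.521 in NHD13 replicates 1 to 3, against 23.3, 37.75 and 32.9 in WT replicates 1 to 3. The alpha chain was therefore depleted relative to the beta chain as well as in level.

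Ms4a2 counts per 100 Cpa3 counts were 83.3, 98.8 and 109 in NHD13 replicates 1 to 3, against 59.7, 60.4 and 59.4 in WT replicates 1 to 3. In WT this ratio was nearly constant although the highest and lowest WT libraries differed 1.58-fold for Ms4a2 and 1.56-fold for Cpa3. Gzmb per 100 Mcpt8 counts was 33.3, 43.1 and 48.4 in NHD13 replicates 1 to 3, against 3.18, 3.43 and 3.37 in WT replicates 1 to 3, again nearly constant in WT.

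Mcpt8 per 100 Cpa3 counts was 67.5, 67.4 and 54.0 in NHD13 replicates 1 to 3, against 118, 173 and 162 in WT replicates 1 to 3. Prss34 per 100 Mcpt8 counts was 25.9, 50.0 and 104 in NHD13 replicates 1 to 3, against 127, 180 and 160 in WT replicates 1 to 3, so the 2 basophil proteases did not fall in proportion. Il1rl1 per 100 Cpa3 counts was 384, 899 and 491 in NHD13 replicates 1 to 3, against 75.9, 43.45 and 60.2 in WT replicates 1 to 3. Hdc per 100 Cpa3 counts was 1345, 1256 and 719 in NHD13 replicates 1 to 3, against 392.5, 249 and 295 in WT replicates 1 to 3. In every NHD13 library Il1rl1 and Hdc were thus higher relative to Cpa3 than in any WT library. Cyp11a1 per 100 Cpa3 counts was 6.67, 11.6 and 7.39 in NHD13 replicates 1 to 3, against 5.47, 5.94 and 4.32 in WT replicates 1 to 3, on few counts. Fcer1g per 100 Ms4a2 counts was 1318, 1715 and 680 in NHD13 replicates 1 to 3, against 417, 404 and 461 in WT replicates 1 to 3.

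**Figure D4:**
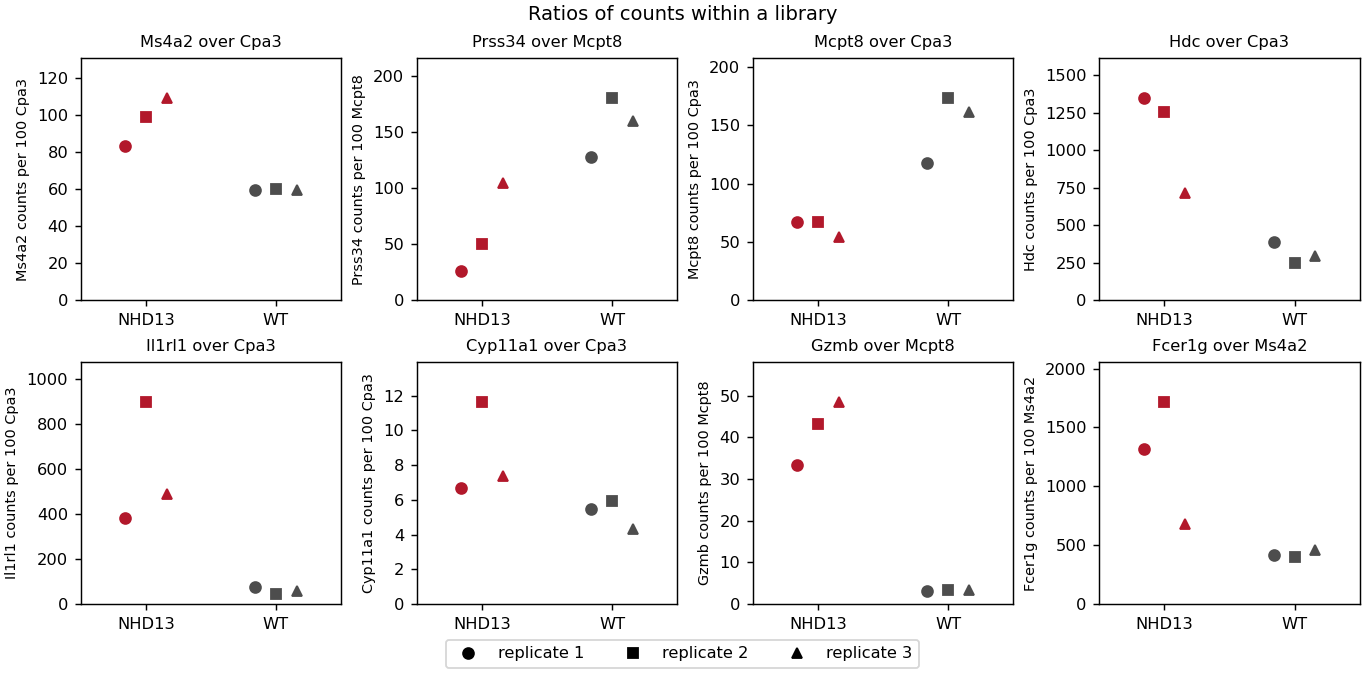
Counts of the first gene per 100 counts of the second within each library, with NHD13 left and WT right in each panel and symbols for the replicate number. The ratio of Fcer1a to Ms4a2 is not drawn. In all 8 panels the groups do not overlap. Ms4a2 over Cpa3 and Gzmb over Mcpt8 are nearly constant in WT, at 59.4 to 60.4 and at 3.18 to 3.43.

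Libraries of 1 group also differed together. Of the 10 genes, 8 were highest in WT replicate 2 among the WT libraries and 7 were lowest in WT replicate 1. Among the NHD13 libraries 7 were highest in replicate 3. The 10 genes summed to 281, 250.5 and 280.1 CPM in NHD13 replicates 1 to 3, against 590.6, 959 and 759 CPM in WT replicates 1 to 3. Hdc and Il1rl1, highest in WT replicate 1, went against this order.

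Neighbouring genes gave a view of position. Within 100 kb of the 10 genes lie 43 other protein-coding genes with a row, and of the 29 that were tested 6 were lower and 3 higher. For comparison, 15.3% of all tested genes were lower and 15.0% higher. Around Fcer1a no such row was found, and around Mcpt8 and Gzmb the only tested neighbour was Ctsg, the cathepsin G of neutrophil and mast cell granules, at 782 ± 344 CPM in NHD13 and 1333 ± 190.4 CPM in WT (log2 -0.77, adjusted p = 0.0516). Ctsg passed without NHD13 replicate 1, without replicate 1 of both groups, with the replicate block, with limma-voom and with upper-quartile scaling. It did not pass in the other alternative settings. Next to Ms4a2, the family members Ms4a6d (log2 -1.64, adjusted p = 0.00448) and Ms4a6b (log2 -1.25, adjusted p = 0.000843) fell, and Ms4a3, a marker of granulocyte-monocyte progenitors, was at 444 CPM in NHD13 and 552 CPM in WT (adjusted p = 0.31). Beside Il1rl1, the interleukin receptor genes Il1rl2 (log2 -1.68, adjusted p = 0.000569) and Il18rap (log2 -0.32, adjusted p = 0.0294) fell. Il18r1, which starts 0.1 kb from the end of Il1rl1, did not pass (log2 -0.55, adjusted p = 0.0673). Reads between such close genes may be split with error.

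Of the proteases of mature tissue mast cells, Mcpt2, Mcpt4, Tpsb2 and Cma1 were at or near 0 in both groups. Over 3 libraries each, Mcpt2 had 0 counts in NHD13 and 0 in WT, Mcpt4 had 1 and 0, and the tryptase gene Tpsb2 had 1 and 1. The chymase gene Cma1 was at 0.311 ± 0.210 CPM in NHD13 and 0.170 ± 0.079 CPM in WT. Of the 10 listed further proteases 5 had a row and only Ctsg was tested, and Mrgprb2, a receptor of connective-tissue mast cells, had 0 counts in all libraries.

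Signalling genes downstream of the IgE receptor changed little in size. Of 18 tested genes 9 fell and none rose (15.3% and 15.0% of all genes), with a median log2 change of -0.34. Lat2, an adaptor that organises the receptor complex, was at 21.6 ± 3.96 CPM in NHD13 and 35.1 ± 2.89 CPM in WT (log2 -0.70, adjusted p = 0.00712), and Plcg1, a phospholipase that triggers calcium release, at 14.0 ± 2.26 CPM in NHD13 and 22.3 ± 1.61 CPM in WT (log2 -0.67, adjusted p = 0.00774). The adaptor Lcp2 (log2 -0.40) and the kinase Prkcd (log2 -0.43) fell less. Syk, the kinase that binds the gamma chain, did not pass (log2 -0.37, adjusted p = 0.052). The count of 9 was 14 without NHD13 replicate 1, 2 or 3 without any one of NHD13 replicates 2 and 3 and WT replicates 2 and 3, and 0 with the Y-linked sum as a covariate.

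Over all tested genes 15.3% were lower and 15.0% higher. Of 9 genes of granule exocytosis only Stx3, a membrane fusion protein, fell (log2 -0.93, adjusted p = 0.0025), with a median of -0.11. The number was 3 without NHD13 replicate 1, and the call of Stx3 was lost with the Y-linked sum as a covariate (log2 -0.64, adjusted p = 0.117). In a list of Fc receptors, other immune receptors and adaptors, 5 of 7 tested fell, with a median of -0.64. Fcgr3, a low-affinity IgG receptor that uses the gamma chain, was at 105 ± 22.5 CPM in NHD13 and 189 ± 12.9 CPM in WT (log2 -0.85, adjusted p = 0.00356). Fcgr4, another IgG receptor, and the adaptors Tyrobp and Hcst fell by 0.76, 0.64 and 0.49 on the log2 scale. Ncr1, an NK cell receptor that also fell, had 2 counts in NHD13 and 67 in WT and entered the test only through WT. The count was 3 without NHD13 replicate 3, WT replicate 2 or WT replicate 3, and 0 with the covariate.

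Among 10 tested genes of the granule matrix and of mediators 4 fell (15.3% of all genes), with a median of -0.28. Slc18a2, the transporter that loads histamine into granules, was at 11.5 ± 0.656 CPM in NHD13 and 26.6 ± 4.11 CPM in WT (log2 -1.21, adjusted p = 0.000791). The growth factor gene Csf1 (log2 -1.22) and the leukotriene pathway genes Alox5 (log2 -0.63) and Alox5ap (log2 -0.53) fell too, whereas Srgn, the granule proteoglycan, did not pass (log2 -0.31, adjusted p = 0.263). The cytokine genes Il4, Il13 and Il6 had 3, 2 and 3 counts over the NHD13 libraries and 11, 0 and 13 over the WT libraries, too few to test. Of 3 tested genes of histamine handling, Slc18a2 and Hnmt, which inactivates histamine, fell (Hnmt log2 -1.07, adjusted p = 0.00154). The covariate ended all 4 calls of the first list and 1 of the 2 here, and the call of Alox5 was also lost without NHD13 replicate 1, NHD13 replicate 3, WT replicate 2 or WT replicate 3.

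The share of lower genes over all tested genes was 15.3%. Of 6 tested genes of the IL-33 pathway only Sigirr, an inhibitor of the receptor family, fell (log2 -0.56, adjusted p = 0.00879). The median was -0.12, and 4 fell without NHD13 replicate 1. Il1rap, the partner chain of ST2, was at log2 -0.25 (adjusted p = 0.235), and Il33 itself had 0 counts in NHD13 and 1 in WT. Of 5 tested steroid synthesis genes only Tspo, a mitochondrial cholesterol-binding protein, fell (log2 -0.47, adjusted p = 0.0154), a call lost without NHD13 replicate 2, NHD13 replicate 3, WT replicate 2 or WT replicate 3. Star, which carries cholesterol to Cyp11a1, had 217 counts in NHD13 and 180 in WT (adjusted p = 0.589). The covariate ended the calls of Sigirr and Tspo. Fdx1 and Fdxr, which pass electrons to Cyp11a1, were at log2 -0.04 (adjusted p = 0.856) and -0.07 (adjusted p = 0.667).

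Surface receptors of basophils and mast cells fell in 8 of 12 tested cases (15.3% of all genes), with a median log2 change of -0.89. Itgb7, an integrin of mast cell progenitors, was at 18.3 ± 3.17 CPM in NHD13 and 52.2 ± 13.5 CPM in WT (log2 -1.51, adjusted p = 0.0017). Il3ra, the receptor chain for IL-3, the main growth factor of basophils, was at 10.05 ± 1.88 CPM in NHD13 and 23.0 ± 3.08 CPM in WT (log2 -1.20, adjusted p = 0.00166). Adora3 and Il4ra fell by 1.38 and 0.70 on the log2 scale. Cd200r3, an activating receptor of mouse basophils, fell to 0.213 ± 0.207 CPM in NHD13, against 2.54 ± 1.54 CPM in WT, and entered the test only through WT, as did Itga2. Kit, the stem cell factor receptor that mast cells keep and basophils lose, was at 226 ± 9.44 CPM in NHD13 and 254 ± 13.7 CPM in WT. Its groups did not overlap, but the difference did not pass (log2 -0.16, adjusted p = 0.0884). The count of 8 was 5 without NHD13 replicate 2, WT replicate 2 or WT replicate 3, and 0 with the covariate.

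Transcription factors of these lineages moved in both directions, 4 of 15 lower and 5 higher (15.3% and 15.0% of all genes). Gata2, which both lineages need, fell (log2 -0.52, adjusted p = 0.0266), and so did Mitf, the mast cell factor (log2 -0.57, adjusted p = 0.0396). Irf8 was at 79.0 ± 28.9 CPM in NHD13 and 279 ± 45.6 CPM in WT (log2 -1.82, adjusted p = 0.00139). Gata1 rose to 143.5 ± 43.3 CPM in NHD13, against 64.5 ± 8.91 CPM in WT (log2 1.15, adjusted p = 0.00609), and its cofactor Zfpm1 rose (log2 1.40, adjusted p = 0.000794), as did Hes1 (log2 2.51, adjusted p = 0.0013). Hes1 entered the test only through NHD13, so that a rise was the one difference its test could find. Cebpa did not pass (log2 -0.59, adjusted p = 0.0937). Only 1 factor of the list fell without any one of NHD13 replicates 2 and 3 and WT replicates 2 and 3, while 7 fell without NHD13 replicate 1. With the covariate none fell and 2 rose.

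**Figure D5:**
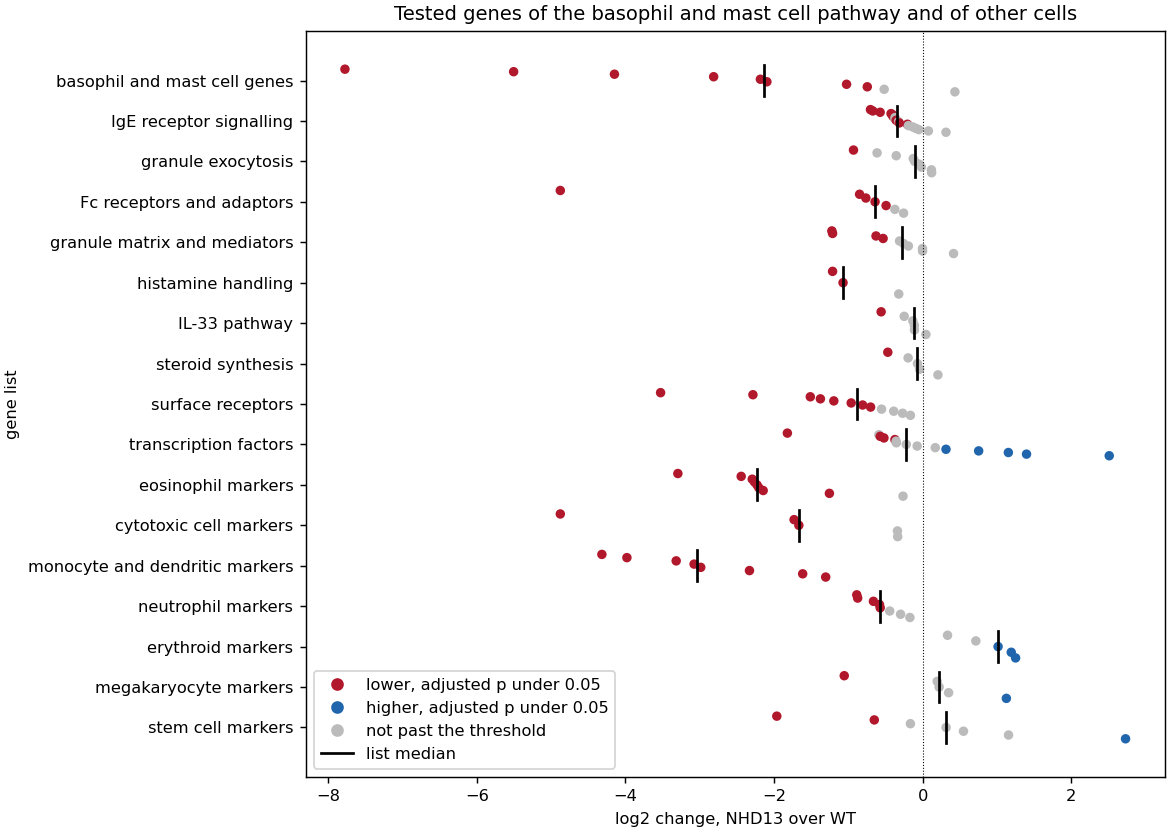
Log2 change, NHD13 over WT, of each tested gene in the pathway lists and in lists of markers of other cells, with a black bar at the list median. Red points fell and blue points rose at an adjusted p under 0.05, and grey points did not pass. The 10 basophil and mast cell genes have a median of -2.14, the IgE receptor signalling genes -0.34 and the erythroid markers 1.02.

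Markers of other marrow cells moved with the comparison, and their part in the falls of the 10 genes was not tested. Over all tested genes 15.3% were lower and 15.0% higher. Of 9 tested eosinophil genes 8 fell, with a median of -2.23, and the list summed to 169 to 439 CPM in NHD13 and 1140 to 1572 CPM in WT. Ear6, among the 8, entered the test only through WT. Siglecf did not pass (adjusted p = 0.216). All 8 monocyte and dendritic cell markers fell, with a median of -3.03 and sums of 89.2 to 123 CPM in NHD13 and 363 to 498 CPM in WT. Siglech and Itgax, among the 8, entered the test only through WT. Of 8 neutrophil markers 5 fell, with a median of -0.58, and 2 fell without NHD13 replicate 1, WT replicate 2 or WT replicate 3. Of 5 tested cytotoxic cell markers 3 fell, with a median of -1.67, and Gzma, granzyme A, had 1 count in NHD13 and 63 in WT. Ncr1 and Klrd1, among the 3, entered the test only through WT. The number of lower cytotoxic markers was 5 to 7 when WT replicate 1 or any one of NHD13 replicates 1, 2 and 3 was left out.

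Of 5 tested erythroid markers 3 rose and none fell (15.0% and 15.3% of all genes), with a median of 1.02. The list summed to 769 to 1308 CPM in NHD13 and 719 to 799 CPM in WT. Without NHD13 replicate 1, 5 of these markers rose. Of 5 megakaryocyte markers 1 rose and 1 fell. The rise, of Pf4, was lost without NHD13 replicate 1, NHD13 replicate 2, WT replicate 2 or WT replicate 3, and 2 rose without WT replicate 1. Of 7 tested stem cell markers 1 rose and 2 fell, and 1 fell without NHD13 replicate 2, NHD13 replicate 3, WT replicate 2 or WT replicate 3. Mecom was the marker that rose, and 2 rose without any one of NHD13 replicates 2 and 3 and WT replicates 1, 2 and 3. The remaining lists were scarce. Type 2 innate lymphoid cell markers, which share Il1rl1 expression, summed to 4.03 to 4.97 CPM in NHD13 and 7.50 to 10.3 CPM in WT, with 1 of 3 tested lower, Il7r, and 2 lower without NHD13 replicate 1. B cell markers had 1 of 2 tested lower, Cd79b, a call lost without NHD13 replicate 2, NHD13 replicate 3 or any 1 of the WT libraries, and neither tested T cell marker, Cd3d or Cd8a, passed. With the Y-linked sum as a covariate 1 eosinophil and 5 monocyte and dendritic cell markers were lower, no neutrophil or cytotoxic marker was lower, and no erythroid marker was higher. The covariate also ended the calls of Hlf and Ly6a among the stem cell markers, Pf4, Il7r and Cd79b.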

How the data were processed

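RNA-seq libraries of sorted bone marrow cells, 3 NHD13 and 3 WT, were compared. The authors deposited raw counts per gene and library, not normalised. Bowtie2 2.2.1, HTSeq 0.5.4p3 and build mm10 were used, per the submitters' processing notes, while the gene annotation and strand setting are not stated there. Columns were matched to samples by group letter and replicate number.

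Genes were kept by filterByExpr (minimum count 10), which left 12013 and set 5510 aside. Libraries were scaled by TMM and tested with edgeR 4.0.16 in R 4.3.3 (robust quasi-likelihood F test, group as the term, two-sided, Benjamini-Hochberg over all tested genes, threshold 0.05). SEs were derived from the log2 change and its F statistic. Alternatives were DESeq2 1.42.0, limma-voom (limma 3.58.1), other scaling factors, other count filters, a replicate block, left-out libraries and the Y-linked share as a covariate. The fits were checked on simulated data. A count of 0 allows up to 0.2085 to 0.239 CPM per library (3 counts). Such floors and the intervals reflect counting error alone. Positions come from GENCODE vM21.

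The 10 members and 20 other lists were chosen with earlier results of these data known. Of 207 distinct symbols, 4 were found by an older symbol and 11 had no match. The text names all members and, per list, up to 4 genes past the threshold, ranked by p, or, where none passed, the 2 of highest mean CPM; other named genes, the promoter windows and the neighbouring genes were chosen after values were seen.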

Additional observations from a re-analysis of the deposited data

How the results depend on the processing

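Beside the reported fit, 15 alternative settings were run. The count of 8 lower genes among the 10 was the same in all of them except with the Y-linked sum as a covariate, where Fcer1a, Ms4a2, Prss34, Mcpt8 and Cpa3 passed, 5 in all. With that covariate Gzmb turned to 0.51, and Cd3d, a T cell marker, to 0.504. Leaving out 1 library gave -0.6871 to 0.0893 for Cd3d, positive without WT replicate 2. The cause was not tested. Over all genes, 175 were lower and 111 higher with the covariate, and 3245 and 3244 without replicate 1 of both groups. Leaving out 1 library gave 957 to 2966 lower genes and 760 to 3012 higher genes, and 8 lower members each time. The replicate block gave 8 lower members, 2233 lower genes and 2007 higher genes. Same-numbered libraries correlated in their deviations at 0.249, 0.063 and 0.175 for replicates 1, 2 and 3. Differently numbered libraries were not compared in this way, so these values cannot decide whether the libraries are paired. The labels state no pairs, and the block was therefore run as an alternative only. Under the block the calls of the eosinophil genes Epx (adjusted p = 0.086) and Prg2 (adjusted p = 0.0613) were lost. Upper-quartile scaling gave 2132 lower and 1427 higher genes. Low counts limit Fcer1a in NHD13 (2 counts), Gzmb and Cyp11a1.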
